A study of Drosophila melanogaster with 36 samples.

Results

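The comparison was of male fruit flies on day 2 of an inhalation study, exposed flies against flies that breathed filtered air. The labels do not say whether days count from the exposure. Exposed flies were wild-type (WT) Drosophila melanogaster males that had breathed CMIT/MIT, a biocide mixture of chloromethylisothiazolinone and methylisothiazolinone, as an aerosol of 330 mg/m3 during 1 hour. Air flies were WT males that had breathed filtered air. The labels give neither strain nor age, nor how many flies went into a library, nor whether replicates came from separate cultures, so p-values measure only the spread between these libraries. RNA came from whole flies, and 3' end sequencing counted reads near the end of each transcript. The 6 male libraries of day 2, 3 exposed and 3 air, were taken by their titles from 36 libraries over days 1, 2 and 7 and both sexes. Exposed replicate 3 held RNA of both sexes, so results lead with the 5 other libraries, 2 exposed against 3 air, and gene group counts are also given with it kept.

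Isothiazolinones react with the thiol groups of proteins and glutathione, and thiol-reactive chemicals are generally met by glutathione transferases, cytochrome P450s and other detoxifying enzymes. In flies, bacteria and fungi are sensed by peptidoglycan recognition proteins and other receptors of the Imd and Toll pathways, which switch on antimicrobial peptide genes mainly in the fat body, while JAK-STAT signalling drives the Turandot stress peptides. The male accessory gland makes the seminal fluid proteins that pass to the female at mating, and their transcripts are among the most abundant in a whole male.

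Depth was 10252017 and 9743688 counts in exposed replicates 1 and 2 (10237515 in exposed replicate 3), and 15444994, 9812908 and 10813567 counts in air replicates 1 to 3. At these depths 3 counts correspond to 0.194 to 0.308 CPM (a gene's share of its library's counts, scaled to a fixed total), the unit of all levels below, and such floors and intervals cover counting error only. The male RNA lncRNA:roX1, part of the dosage compensation complex, measured 1394 and 1468 CPM in exposed replicates 1 and 2, against 1385, 1721 and 1231 CPM in the air libraries, and 209.8 CPM in exposed replicate 3. That library also held 6700 CPM of the yolk protein gene Yp1 and 4129 CPM of the egg thioredoxin gene dhd. Exposed replicate 2 held 73.2 CPM of Yp1 and 38.7 CPM of dhd, above all 3 air libraries, which held at most 33.0 and 10.4 CPM. Among males of other days, air replicate 1 of day 7 held 56.7 and 36.3 CPM, and exposed replicate 2 of day 7 held 176 and 29.7 CPM. The remaining males of days 1 and 7 held at most 31.9 and 19.2 CPM. Over 12490 genes, log2 CPM of exposed replicate 3 correlated at 0.695 to 0.782 with the other 5 male libraries and at 0.986 with exposed female replicate 1, while those 5 correlated at 0.921 to 0.961 among themselves. These correlations are across genes, which are not independent replicates.

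**Figure D1:**
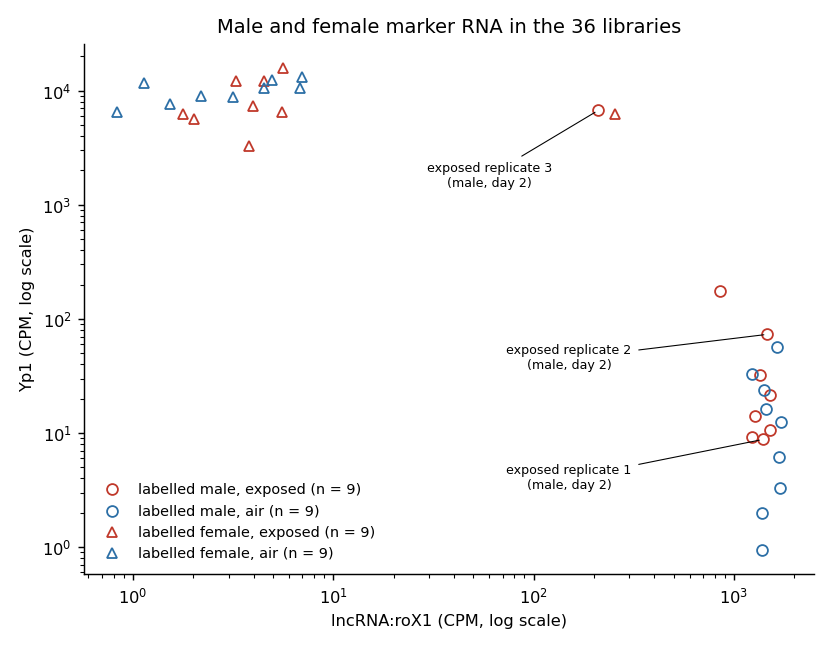
lncRNA:roX1 (horizontal axis) against Yp1 (vertical axis), both in CPM on log scales, in all 36 libraries, with circles for libraries labelled male, triangles for libraries labelled female, red for exposed and blue for air. Exposed replicate 3 of the day 2 males lies away from the other male libraries, at 209.8 CPM of roX1 and 6700 CPM of Yp1.

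No gene passed an adjusted p of 0.05 in males on day 2 (edgeR quasi-likelihood test, Benjamini-Hochberg over 13216 genes tested): 0 genes (0%) were higher and 0 (0%) lower. Below an unadjusted p of 0.05 lay 488 higher (3.69%) and 437 lower (3.31%) genes, and 7 genes (0.053%) had an adjusted p below 0.1. At the threshold of the series text, over 1.5-fold with an unadjusted p below 0.05, 460 genes (3.48%) were higher and 355 (2.69%) lower. DESeq2, on the same 5 libraries and the shared spread of the other male libraries, called 23 genes higher (0.174%) and 15 lower (0.113%) at an adjusted p of 0.05. Groups did not overlap in CPM for 1354 genes (10.2%) that were higher and 1148 (8.69%) that were lower. The smallest p was that of Cyp4e3, and of the 7 genes with an adjusted p below 0.1, 5 are antimicrobial peptide genes (AttC, Mtk, DptA, AttD and Mtkl) and 1 is a small nucleolar RNA.

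**Figure D2:**
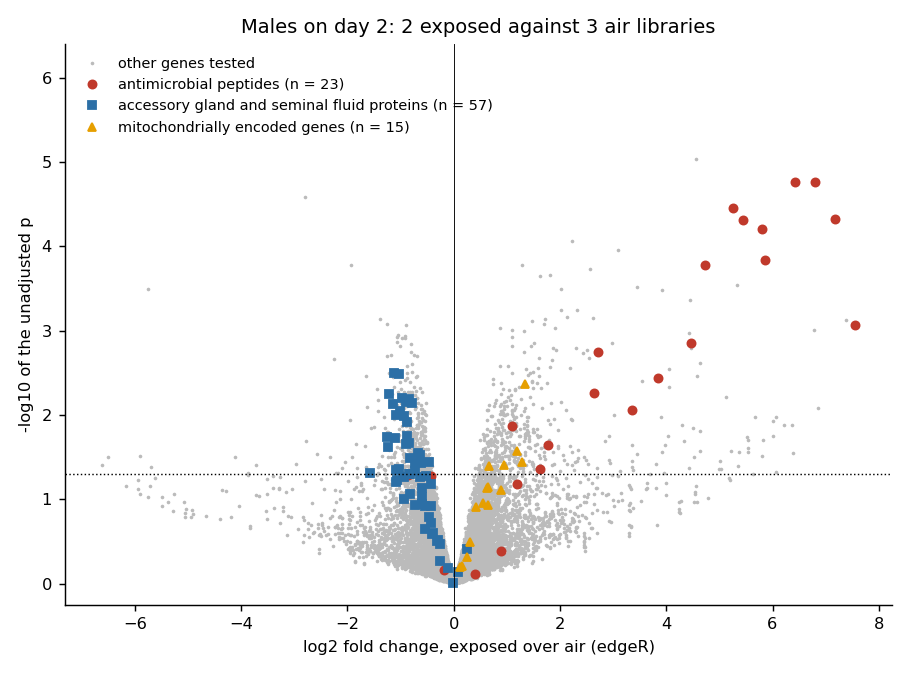
Each of the 13216 genes tested by its log2 fold change, exposed over air, and the −log10 of its unadjusted p from edgeR, with 3 gene groups in colour and a dotted line at an unadjusted p of 0.05. Antimicrobial peptides (red circles) reach the far right and the top, seminal fluid proteins (blue squares) lie mostly left of 0, and mitochondrially encoded genes (orange triangles) lie right of it.

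Most antimicrobial peptide genes were higher in exposed males: 13 of 23 lay above every air library in both exposed libraries, against 10.2% of all genes, and 1, Anp, below, against 8.69%. Of 28 genes on the list, 23 were tested, and BaraA1, BaraA2, Drsl1, Drsl6 and edin did not pass the filter on low counts. Among the 23, 17 were higher and 0 lower at an unadjusted p below 0.05, against 3.69% and 3.31% of all genes, with a median log2 fold change of 3.36 against 0.01 over all genes tested. In bulk RNA, more cells of a type and more RNA per cell cannot be told apart. None passed the adjusted threshold in edgeR, and DESeq2 called 7 of them higher (AttA, AttC, DptA, DptB, Dro, Mtk and Mtkl).

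AttC, an attacin that acts on Gram-negative bacteria (FBgn0041579, chromosome arm 2R), had 223 and 1328 CPM in exposed replicates 1 and 2, against 10.4, 7.34 and 9.53 CPM in air replicates 1 to 3. Its log2 fold change was 6.43 with a standard error (SE) of 1.14 (adjusted p = 0.0762). Mtk, the antifungal peptide metchnikowin, had 258 and 3321 CPM in the exposed libraries, against 16.3, 12.8 and 19.2 CPM in air, which fitted as 6.79 on the log2 scale (SE 1.20, adjusted p = 0.0762). In both genes the exposed libraries lay above every air library, and exposed replicate 2 was several times above exposed replicate 1. DptA, a diptericin directed by the Imd pathway, had 474 and 667 CPM in the exposed libraries, against 14.4, 7.44 and 22 CPM in air (log2 fold change 5.26, SE 0.99, adjusted p = 0.0917). AttD, an attacin without a signal peptide (FBgn0038530, chromosome arm 3R, 17625268 to 17626086), had 58 and 215 counts in exposed libraries, against 0, 0 and 3 counts in air, a ratio of 164 per count sequenced with a 95% exact counting interval of 55.6 to 801. Exposed replicate 3 held less of each: 22.7 CPM of AttC, above the air libraries, 15.4 CPM of Mtk, 1.66 CPM of DptA and 0 counts of AttD.

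Dro, AttA, Drs and Anp were chosen after their values were seen. Dro, the peptide drosocin, had 1167 and 5889 CPM in exposed replicates 1 and 2, against 137, 92.8 and 165 CPM in air (log2 fold change 4.74, SE 1.02, adjusted p = 0.159). DptB had 225 and 1288 CPM in exposed libraries, against 5.57, 11.2 and 22.4 CPM in air, and AttA had 77.5 and 799 CPM, against 5.83, 8.15 and 8.69 CPM. AttA and AttB are near-identical neighbours, and so are several cecropin genes, so how the authors' counting split reads between such copies is uncertain. Drs, the Toll target drosomycin, had 74.9 and 1627 CPM in exposed libraries, against 36.5, 89.2 and 115 CPM in air, so exposed replicate 1 lay within the air range and exposed replicate 2 far above it (log2 fold change 3.36, SE 1.15, adjusted p = 0.570). Not every member was high: Anp, the peptide andropin of the male ejaculatory duct, had 1832 and 1721 CPM in exposed libraries, against 2341, 2147 and 2687 CPM in air (log2 fold change −0.43, adjusted p = 0.711).

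Exposed replicate 2 carried most of the size of this difference. It lay above all 3 air libraries in 19 of 23 antimicrobial peptide genes and exposed replicate 1 in 13, against 26.3% and 17.5% of all genes tested, while exposed replicate 3 did so in 4 of 23, against 37% of all genes. Summed over the whole list, antimicrobial peptides reached 5835 and 25078 CPM in exposed replicates 1 and 2 (2714 CPM in exposed replicate 3), against 3525, 3537 and 5317 CPM in air. Without exposed replicate 2 the median log2 fold change of the 23 was 1.39. Without exposed replicate 1 it was 4.29, against −0.02 over all genes in both. Each of these fits left 1 exposed library, so no counts are given. With exposed replicate 3 kept, 15 of the 23 were higher and 2 lower at an unadjusted p below 0.05. The shares over 12871 genes were 16.5% and 5.3%, and the median of the 23 was 3.21. Levels of haemocyte genes, another source of immune transcripts, summed to 527 and 911 CPM in exposed replicates 1 and 2, against 466, 675 and 745 CPM in air, and their part in the result was not tested.

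The air males of day 2 were themselves low in these genes. AttC measured 684, 338 and 102 CPM in the air males of day 1 and 400, 192 and 20.7 CPM in those of day 7, a range that holds exposed replicate 1 of day 2 and lies below exposed replicate 2. In a comparison added after the data were seen, day 2 air males against the 6 air males of days 1 and 7, AttC differed by −4.76 (SE 0.99, adjusted p = 0.0165), Mtk by −4.51 (SE 1.02, adjusted p = 0.0276), DptA by −3.76 (SE 0.85, adjusted p = 0.0282) and Dro by −3.92 (SE 0.91, adjusted p = 0.0326) on the log2 scale. In that comparison 135 genes (1.02%) rose and 46 (0.348%) fell, with 1 of the 23 antimicrobial peptide genes among the first and 6 among the second. Set against the same 6 air libraries, the 2 exposed libraries of day 2 gave log2 fold changes of 1.67 for AttC (adjusted p = 0.942), 2.28 for Mtk (adjusted p = 0.749) and 1.50 for DptA (adjusted p = 0.942). There, 9 of 23 members were higher at an unadjusted p below 0.05, against 2.76% of all genes, with a median of 1.06. Day of sampling cannot be told apart from any handling that differed between days.

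**Figure D3:**
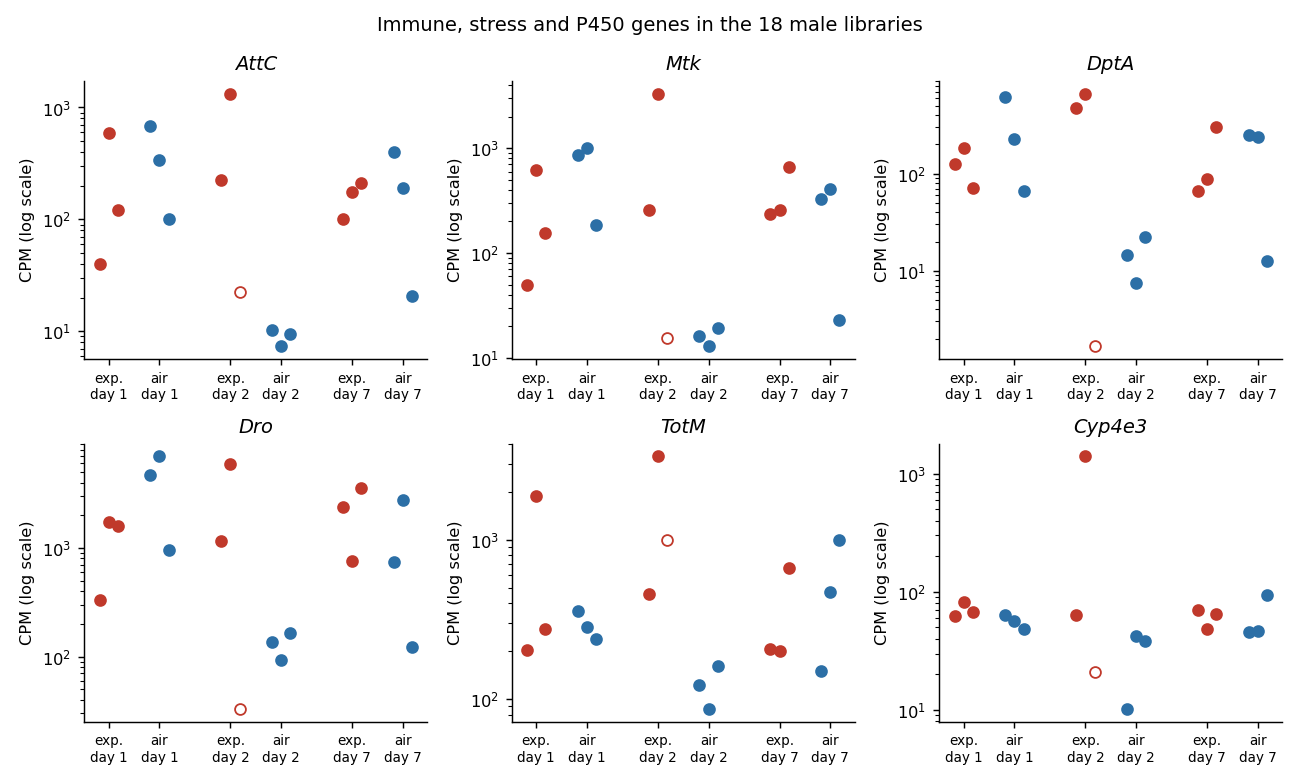
Levels of 6 genes in CPM on log scales in all 18 male libraries, exposed (red) left of air (blue) on each of days 1, 2 and 7, with exposed replicate 3 of day 2 as an open circle. On day 2 the 2 filled red points lie above the blue points in all 6 genes, and for AttC and Mtk the day 2 air points lie below all 6 air points of days 1 and 7, while for DptA and Dro 1 air point of day 7 is as low.

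Secreted immune peptides of the Toll pathway, the Bomanins, summed above the air males of day 2 in exposed replicate 2 alone. All 12 were tested, 4 were higher and 0 lower at an unadjusted p below 0.05, against 3.69% and 3.31% of all genes, and their median log2 fold change was 1.07. Keeping exposed replicate 3 gave 2 higher, against 16.5% of all genes, and a median of 0.98. The list summed to 3546 and 15815 CPM in exposed replicates 1 and 2, against 2818, 3748 and 7160 CPM in air. These 3 air libraries and exposed replicate 1 lay below every air male of days 1 and 7, which summed to between 7676 and 11528 CPM. Exposed males of days 1 and 7 summed to between 7032 and 27334 CPM, a range that holds exposed replicate 2 of day 2. BomT2 had 262 and 1470 CPM in exposed libraries, against 139, 247 and 499 CPM in air (log2 fold change 1.49, SE 0.56, adjusted p = 0.599), BomS2 a log2 fold change of 1.97 (adjusted p = 0.637) and BomBc2 one of 1.32 (adjusted p = 0.625). Exposed replicate 2 lay above all air libraries in 12 of 12 Bomanins and exposed replicate 1 in 0, and without replicate 2 the median turned to −0.41. Without air replicate 1 or air replicate 2, 0 Bomanins were higher at an unadjusted p below 0.05, against 5.37% and 3.01% of all genes. Without air replicate 3, 8 were, against 6.3%, and without exposed replicate 1 the median was 1.73.

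Recognition and signalling genes centred near 0 as a group, with 3 of 30 tested genes higher and 0 lower at an unadjusted p below 0.05, against 3.69% and 3.31% of all genes, and a median of 0.07. Keeping exposed replicate 3 gave 6 of 29 higher, against 16.5% of all genes, and leaving out air replicate 3 gave 7 of 30, against 6.3%. Without exposed replicate 1 the median was 0.29. PGRP-SB1, a secreted peptidoglycan recognition protein, had 49.6 and 178 CPM in exposed libraries, against 6.28, 12.7 and 12.1 CPM in air (log2 fold change 3.45, SE 0.79, adjusted p = 0.199). PGRP-SD, an extracellular receptor, had 36.7 and 108 CPM, against 13.5, 17.2 and 22.3 CPM (log2 fold change 2.02, SE 0.46, adjusted p = 0.199). The third was key, which encodes the gamma subunit of the kinase complex of the Imd pathway, with 12.1 and 16.7 CPM in exposed libraries, against 3.88, 4.38 and 4.62 CPM in air (log2 fold change 1.75, adjusted p = 0.642). DESeq2 called PGRP-SB1 and PGRP-SD higher. IBIN, a short infection-induced peptide gene chosen after its values were seen, had 24.6 and 398 CPM in exposed libraries, against 1.23, 0.917 and 1.66 CPM in air (log2 fold change 7.38, SE 1.85, adjusted p = 0.325).

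Among 17 tested Turandot and JAK-STAT genes, 5 were higher and 1 lower at an unadjusted p below 0.05, against 3.69% and 3.31% of all genes, with a median of 0.19. The median was 0.10 without exposed replicate 2 and 0.26 without exposed replicate 1, fits with 1 exposed library each. It lay between −0.01 (without air replicate 2) and 0.44 (without air replicate 1) when 1 library of day 2 was left out. When exposed replicate 3 was kept, 5 of 16 were higher and 1 lower, against 16.5% and 5.3% of all genes, with a median of 0.31. TotM, a secreted stress peptide (FBgn0031701, 2L, 5329857 to 5330464), had 458 and 3338 CPM in exposed libraries, against 122, 86.5 and 162 CPM in air (log2 fold change 3.93, SE 0.90, adjusted p = 0.199). TotA, its relative, had 740 and 2065 CPM in exposed libraries, against 112, 207 and 339 CPM in air (log2 fold change 2.62, SE 0.65, adjusted p = 0.325). Diedel, a secreted protein known to dampen Imd signalling, had 17.5 and 51.3 CPM, against 8.81, 3.06 and 1.76 CPM (log2 fold change 2.97, SE 0.80, adjusted p = 0.365). TotM, TotA and Diedel were above every air library in exposed replicate 3 too, at 990, 713 and 88.3 CPM. That library resembled exposed female replicate 1, and the exposed females held 878, 3758 and 986 CPM of TotM, against 236, 70.1 and 22.3 CPM in air females. In females of day 2, fitted with replicates 2 and 3 of the exposed group, TotA rose by 3.86 (adjusted p = 0.0325) and Diedel by 5.24 (adjusted p = 0.031) on the log2 scale, among 4 genes (0.0294%) that rose and 101 (0.742%) that fell there, while the effect in males minus that in females was not past the threshold for any Turandot or JAK-STAT gene.

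Seminal fluid protein genes summed to less in each exposed library than in any air library. All 57 on the list were tested, 30 were lower and 0 higher at an unadjusted p below 0.05, against 3.31% and 3.69% of all genes, 30 lay below every air library in both exposed libraries against 8.69% of all genes, and the median log2 fold change was −0.79. None passed the adjusted threshold in edgeR or DESeq2. With exposed replicate 3 kept, 44 were lower, against 5.3% of all genes, with a median of −1.15. The list summed to 85636 and 25851 CPM in exposed replicates 1 and 2 (14498 CPM in exposed replicate 3), against 108600, 98063 and 117979 CPM in air.

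Dup99B, a peptide of the ejaculatory duct related to the sex peptide, had 4707 and 1700 CPM in exposed libraries, against 7819, 6927 and 6303 CPM in air (log2 fold change −1.12, SE 0.33, adjusted p = 0.473). Mst57Da had 4075 and 1662 CPM in exposed libraries, against 6521, 4914 and 6135 CPM in air (log2 fold change −1.03, SE 0.31, adjusted p = 0.477). Sfp96F had 5307 and 1274 CPM, against 7519, 6133 and 9097 CPM (log2 fold change −1.22, SE 0.39, adjusted p = 0.537). In these 3 genes both exposed libraries lay below all air libraries, and exposed replicate 2 was the lower of the pair. SP, the sex peptide that alters female behaviour after mating, was chosen after its values were seen and had 3749 and 1836 CPM in exposed libraries, against 5364, 4440 and 5841 CPM in air (log2 fold change −0.91, SE 0.30, adjusted p = 0.558). Acp26Aa, the ovulation-stimulating protein ovulin, chosen likewise, had 651 and 163 CPM, against 632, 784 and 751 CPM, so that exposed replicate 1 lay within the air range.

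Exposed replicate 2 also carried most of the size here. It was below all air libraries in 54 of 57 genes and exposed replicate 1 in 30, against 19.3% and 18% of all genes tested. Without exposed replicate 2 the median log2 fold change was −0.21, and without exposed replicate 1 it was −1.62, against −0.02 over all genes in both. Each of these fits left 1 exposed library, so no counts are given. Without air replicate 3, 13 were lower at an unadjusted p below 0.05, against 3.64% of all genes. When only the 5 libraries of day 2 were fitted 6 were, against 1.17%. Day 2 air males stood above the air males of other days: the list summed to between 44345 and 61781 CPM in the 6 air males of days 1 and 7. In the added comparison of day 2 air males with those 6, 28 of the 57 genes rose past the adjusted threshold, among them Dup99B by 1.07 (adjusted p = 0.0263), Mst57Da by 1.19 (adjusted p = 0.00985) and Sfp96F by 1.66 (adjusted p = 0.0073) on the log2 scale. The 2 exposed libraries differed from the same 6 by −0.04 in Dup99B, 0.16 in Mst57Da and 0.44 in Sfp96F, with adjusted p-values of at least 0.999, and the median over the list was 0.35. Testis and sperm genes did not share the pattern: of 65 tested, 0 were higher and 0 lower at an unadjusted p below 0.05, and the median was −0.01.

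**Figure D4:**
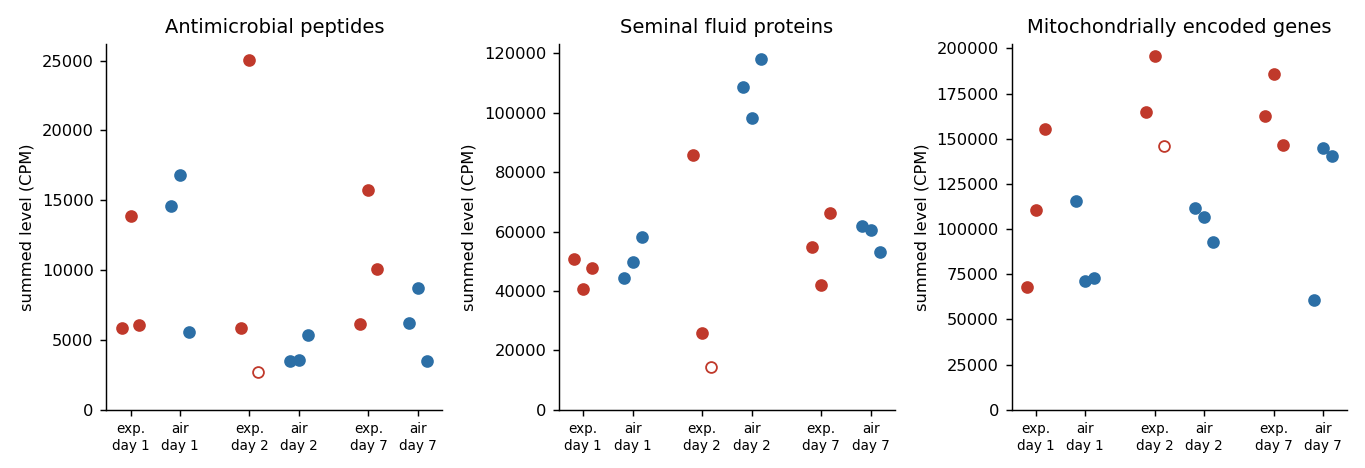
Summed levels of 3 gene groups in CPM in all 18 male libraries, exposed (red) left of air (blue) on each day, with exposed replicate 3 of day 2 as an open circle and axes starting at 0. On day 2 seminal fluid proteins reach 85636 and 25851 CPM in exposed replicates 1 and 2 and between 98063 and 117979 CPM in air, above the air males of days 1 and 7.

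Mitochondrially encoded transcripts summed to more in each exposed library than in any air library. All 15 genes had positive log2 fold changes, against 50.6% of all genes, 5 were higher and 0 lower at an unadjusted p below 0.05, against 3.69% and 3.31% of all genes, and the median was 0.64. When exposed replicate 3 was kept, 4 were higher, against 16.5% of all genes, and the median was 0.49. Their sum was 164741 and 195667 CPM in exposed replicates 1 and 2 (146151 CPM in exposed replicate 3), against 111531, 106447 and 93081 CPM in air, with no overlap. The large ribosomal RNA lrRNA alone took 13.1% and 15.2% of counts in the exposed libraries, against 8.78%, 7.49% and 6.10% in air. ND5, a complex I subunit, had 317 and 601 CPM in exposed libraries, against 105, 224 and 205 CPM in air (log2 fold change 1.34, SE 0.42, adjusted p = 0.50). ND3 and ATP8 had log2 fold changes of 1.20 (adjusted p = 0.661) and 1.29 (adjusted p = 0.683). Without air replicate 1, 1 of the 15 was higher at an unadjusted p below 0.05, against 5.37% of all genes. Without exposed replicate 2, a fit with 1 exposed library, the median was 0.42. Air males of days 1 and 7 summed to between 60640 and 144985 CPM, below both exposed libraries of day 2. In females of day 2, 0 of the 15 had a positive log2 fold change, against 37.1% of all genes, with a median of −0.52. The effect in males minus that in females was higher for 6 of 15 at an unadjusted p below 0.05. That compares with 5.51% of all genes, and none of the 15 passed the adjusted threshold. Reads of mitochondrial RNA can depend on priming and RNA quality, which the files do not record.

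Of 73 nuclear genes of oxidative phosphorylation tested, 2 were higher and 4 lower at an unadjusted p below 0.05, against 3.69% and 3.31% of all genes, and the median was −0.11. Without air replicate 1, 10 were lower, against 4.78% of all genes, and keeping exposed replicate 3 gave 7 lower, against 5.3%, with a median of −0.15. Without exposed replicate 2 the median was −0.02. ND-51, which carries the flavin of complex I, had 302 and 272 CPM in exposed libraries, against 462, 425 and 370 CPM in air (log2 fold change −0.53, SE 0.18, adjusted p = 0.558). ND-18 and ND-B15, also of complex I, had log2 fold changes of 0.63 (adjusted p = 0.591) and −0.59 (adjusted p = 0.642). Glycolysis and central carbon genes had 0 of 24 higher and 4 lower, against 3.69% and 3.31% of all genes, with a median of −0.14. With exposed replicate 3 kept 2 were higher and 4 lower, against 16.5% and 5.3%, with a median of −0.12. PyK, the pyruvate kinase, had 394 and 276 CPM in exposed libraries, against 460, 620 and 512 CPM in air (log2 fold change −0.67, SE 0.22, adjusted p = 0.558). The citrate synthase gene kdn had 296 and 217 CPM, against 417, 470 and 298 CPM (log2 fold change −0.60, adjusted p = 0.664). Lipid synthesis and storage genes had 0 of 27 higher and 4 lower, against 3.69% and 3.31% of all genes, with a median of −0.37. Among the 4 was Lpin, the phosphatidate phosphatase lipin, at 96.0 and 95.1 CPM in exposed libraries and 118, 165 and 144 CPM in air (log2 fold change −0.58, adjusted p = 0.631). FASN2, a fatty acid synthase, had a log2 fold change of −0.73 (adjusted p = 0.664) and Gpdh1, the glycerol-3-phosphate dehydrogenase counted in both lists, one of −0.66 (adjusted p = 0.664). Leaving out 1 air library gave 1 (without air replicate 2) to 4 (without air replicate 1) glycolysis genes lower, against 2.19% and 4.78% of all genes. Without exposed replicate 2 their median was −0.16. Lipid genes had 0 lower without air replicate 2, against 2.19%, 1 without air replicate 3, against 3.64%, and 9 without air replicate 1, against 4.78%. Their median was −0.53 without exposed replicate 1 and −0.27 without exposed replicate 2. With exposed replicate 3 kept, 7 lipid genes were lower and 1 higher, against 5.3% and 16.5% of all genes, with a median of −0.36.

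Of 76 cytochrome P450 genes tested, 3 were higher and 0 lower at an unadjusted p below 0.05, against 3.69% and 3.31% of all genes, and the median was 0.15. Without air replicate 3, 10 were higher, against 6.3% of all genes. Without air replicate 1, 3 were lower, against 4.78%, and the median turned to −0.07, while without exposed replicate 2 it was 0.02. Keeping exposed replicate 3 gave 5 higher and 3 lower, against 16.5% and 5.3% of all genes, and turned the median to −0.14. Cyp4e3 (FBgn0015035, 2L, 9747839 to 9750071, minus strand) had the smallest p of all genes, with 63.2 and 1402 CPM in exposed replicates 1 and 2 (20.9 CPM in exposed replicate 3), against 10.2, 42.6 and 38.6 CPM in air (log2 fold change 4.55, SE 0.77, adjusted p = 0.0762). Its size rests on exposed replicate 2: the other 17 male libraries of the 3 days lay between 10.2 and 94.7 CPM. Set against the 6 air males of days 1 and 7, the exposed pair was 3.81 higher on the log2 scale (adjusted p = 0.0166), 1 of 5 genes (0.0378%) that rose in that added comparison, beside 2 (0.0151%) that fell. Cyp9f2 and Cyp6a22 had log2 fold changes of 0.70 (adjusted p = 0.661) and 0.94 (adjusted p = 0.683).

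All 36 glutathione transferase genes were tested, and 3 were higher and 0 lower at an unadjusted p below 0.05, against 3.69% and 3.31% of all genes, with a median of 0.23. Exposed replicate 2 lay above all air libraries in 18 of 36 and exposed replicate 1 in 11, which is 50% and 30.6% against 26.3% and 17.5% of all genes. Without air replicate 3, 8 were higher, against 6.3% of all genes, with a median of 0.58. Without air replicate 1 or air replicate 2, 1 was, against 5.37% and 3.01%, and without exposed replicate 2 the median was 0.11. When exposed replicate 3 was kept, 5 of 35 were higher, against 16.5% of all genes, with a median of 0.35. GstE1 had 15.3 and 22.6 CPM in exposed libraries, against 3.30, 10.3 and 7.95 CPM in air (log2 fold change 1.39, SE 0.52, adjusted p = 0.599). GstD2 had 11.9 and 97.9 CPM, against 15.5, 10.4 and 10.2 CPM, so exposed replicate 2 alone was high (log2 fold change 2.22, adjusted p = 0.661). GstD4 had 20 counts in the exposed pair and 1 in the 3 air libraries, a ratio of 36.1 per count sequenced with a 95% exact counting interval of 5.77 to 1495. UDP-glycosyltransferases had 2 of 27 tested genes higher and 0 lower, against 3.69% and 3.31% of all genes, with a median of 0.11. Without air replicate 3, 5 were higher, against 6.3% of all genes. With exposed replicate 3 kept 1 was higher and 1 lower of 26, against 16.5% and 5.3%, with a median of −0.04. The 2 were Ugt37C2, with 26 counts in the exposed pair and 3 in air (ratio 15.6, interval 4.79 to 80.7), and Ugt302E1, with 15 counts and 1 (ratio 27.1, interval 4.16 to 1139), both near the floor. The next smallest p was that of Ugt302C1, at a log2 fold change of 1.15 (adjusted p = 0.723).

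Metallothioneins and metal-handling genes had 3 of 15 higher and 2 lower at an unadjusted p below 0.05, against 3.69% and 3.31% of all genes. Their median was 0.41. With exposed replicate 3 kept 3 were higher and 1 lower, against 16.5% and 5.3% of all genes, with a median of 0.50. MtnD, a cysteine-rich metal-binding protein, had 33.7 and 33.4 CPM in exposed libraries, against 21.8, 13.3 and 14.0 CPM in air (log2 fold change 1.06, SE 0.35, adjusted p = 0.558). MtnE had 78.6 and 96.6 CPM, against 34.7, 36.7 and 63.4 CPM (log2 fold change 0.93, adjusted p = 0.577), and Ctr1B, a copper importer, had 29.3 and 21.7 CPM, against 24.7, 43.1 and 102 CPM (log2 fold change −1.23, adjusted p = 0.599). In MtnD both arms of day 2 lay below the 6 air males of days 1 and 7, which held between 79.9 and 322 CPM. Against them MtnD fell by 2.09 in exposed males of day 2 (adjusted p = 0.0266) and by 3.15 in air males of day 2 (adjusted p = 6.51e-05) on the log2 scale. Summed over the list, exposed replicate 2 (8121 CPM) lay within the range of those 6 air males, 6120 to 9840 CPM, and exposed replicate 1 (5926 CPM) below it. Heat shock genes had 1 of 20 tested genes higher and 1 lower, against 3.69% and 3.31% of all genes. Their median was −0.20 and turned to 0.31 without air replicate 3. With exposed replicate 3 kept, 5 were higher and 0 lower, against 16.5% and 5.3% of all genes, with a median of −0.12. Hsp23 had 29.3 and 52.0 CPM in exposed libraries, against 12.2, 16.2 and 16.5 CPM in air (log2 fold change 1.44, SE 0.47, adjusted p = 0.558). Hsp27 had 29.2 and 25.5 CPM, against 55.7, 33.6 and 55.1 CPM (log2 fold change −0.82, adjusted p = 0.589), but exposed replicate 3 held 319 CPM and turned the log2 fold change to 1.50 (adjusted p = 0.182). Hsc70-3, the endoplasmic reticulum chaperone, had a log2 fold change of 0.46 (adjusted p = 0.720).

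Maltases, amylases and alkaline phosphatases had 7 of 28 tested genes higher and 3 lower at an unadjusted p below 0.05, against 3.69% and 3.31% of all genes, with a median of 0.05 and none past the adjusted threshold. Without air replicate 3, 13 were higher, against 6.3% of all genes, 2 of them past the adjusted threshold. Without air replicate 1, 3 were, against 5.37%, and without exposed replicate 2 the median was 0.22. Keeping exposed replicate 3 gave 2 higher and 2 lower, against 16.5% and 5.3% of all genes, with a median of −0.06. Mal-B1, a maltase, had 7.71 and 97.7 CPM in exposed libraries, against 5.57, 6.62 and 6.47 CPM in air (log2 fold change 3.09, SE 0.64, adjusted p = 0.148). Amy-d, an amylase with a near-identical copy, had 176 and 145 CPM, against 43.4, 33.1 and 89.1 CPM (log2 fold change 1.49, adjusted p = 0.517). LManIII, an alpha-mannosidase, had 20.9 and 6.47 CPM, against 17.7, 56.5 and 78.8 CPM (log2 fold change −1.96, adjusted p = 0.588). Digestive proteases had 0 of 31 tested genes higher and 2 lower, Jon44E and zetaTry, at log2 fold changes of −1.55 (adjusted p = 0.599) and −1.31 (adjusted p = 0.695), against 3.69% and 3.31% of all genes. Without exposed replicate 1, a fit with 1 exposed library, the median was −2.01, against −0.02 over all genes. Leaving out exposed replicate 2 gave a median of 0.20, and without air replicate 3, 6 of 30 were higher and 1 lower, against 6.3% and 3.64% of all genes. When exposed replicate 3 was kept, 1 of 30 was higher and 0 lower, against 16.5% and 5.3%, with a median of −0.32. The third by p, betaTry, had a log2 fold change of 1.04 (adjusted p = 0.711). The exposed pair disagreed on these genes: the list summed to 15298 and 6179 CPM in exposed replicates 1 and 2, against 5129, 7495 and 13505 CPM in air. Of genes of insulin signalling, adipokinetic hormone and starvation, 3 of 21 tested were higher and 1 lower, against 3.69% and 3.31% of all genes. Their median was 0.30, and 0.02 without exposed replicate 2. Leaving out air replicate 3 gave 6 higher, against 6.3% of all genes. With exposed replicate 3 kept 4 were higher and 1 lower, against 16.5% and 5.3%, with a median of 0.07. Pepck2, of gluconeogenesis, had 15.7 and 134 CPM in exposed libraries, against 16.8, 15.9 and 13.2 CPM in air (log2 fold change 2.31, SE 0.56, adjusted p = 0.298). chico, the insulin receptor substrate, and tobi, a target of insulin and adipokinetic hormone, had log2 fold changes of 0.84 (adjusted p = 0.683) and 0.77 (adjusted p = 0.683).

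The genes with the smallest p among those lower included 4 noncoding RNAs and Adh. The small nucleolar RNA snoRNA:Psi18S-531, which lies within RpL22 on the same strand (X, 763083 to 763234), had 8.0 and 7.8 CPM in exposed libraries (5.86 CPM in exposed replicate 3), against 22.8, 63.4 and 74.0 CPM in air (log2 fold change −2.80, SE 0.51, adjusted p = 0.0849). In all 5 of these genes exposed replicate 3 too lay below every air library. Adh, the alcohol dehydrogenase (FBgn0000055, 2L, 14615552 to 14618902), had 60.7 and 28.5 CPM in exposed libraries (17.8 CPM in exposed replicate 3), against 145, 185 and 177 CPM in air (log2 fold change −1.93, SE 0.42, adjusted p = 0.159). Air males of day 7 held 80.4, 59.5 and 73.3 CPM of Adh and 5.92 to 10.3 CPM of snoRNA:Psi18S-531, near the exposed males of day 2. An alanine transfer RNA, tRNA:Ala-TGC-1-1, showed 4 counts in the exposed pair and 408 in the 3 air libraries (log2 fold change −5.75, SE 1.32, adjusted p = 0.199). lncRNA:let7C, the host of the let-7 microRNA cluster, had 7.80 and 4.82 CPM, against 18.1, 18.4 and 14.1 CPM (log2 fold change −1.40, SE 0.35, adjusted p = 0.325). lncRNA:CR44761 had 22.2 and 8.72 CPM, against 39.2, 38.4 and 33.8 CPM (log2 fold change −1.25, SE 0.32, adjusted p = 0.325). How reads in overlapping genes were assigned is not given in the sources used here, and AttC, Mtk, Adh and snoRNA:Psi18S-531 share bases with a neighbour whose reads they may hold.

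DESeq2 called all of these 5 lower. Of its 23 higher genes, 21 were also called with exposed replicate 3 kept, and of its 15 lower genes, 12 were, while that setting gave 708 higher (5.5%) and 157 lower (1.22%). edgeR with that library kept called 0 higher (0%) and 0 lower (0%) of 12871 genes, with 2129 (16.5%) and 682 (5.3%) below an unadjusted p of 0.05. Among DESeq2 calls outside the lists above were Arf1, a small GTPase of Golgi transport, at 59.3 and 110 CPM in exposed libraries and 27.4, 33.9 and 22.7 CPM in air, and Fas2, a neural cell adhesion protein, at 142 and 116 CPM in exposed libraries and 281, 250 and 157 CPM in air. Their DESeq2 log2 fold changes were 1.59 (adjusted p = 0.011) and −0.82 (adjusted p = 0.0391). These 2 genes were chosen after their values were seen.

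Of genes of the ovary and eggshell, 5 of the 33 tested (of 46 listed) were higher and 0 lower at an unadjusted p below 0.05, against 3.69% and 3.31% of all genes, with a median of 0.87. The list also holds genes that males use, such as bam, which acts in the testis, and Vmat, a monoamine transporter that its name pattern took in, so its sum does not measure female RNA. The yolk protein receptor gene yl had 0.195 and 3.69 CPM in exposed replicates 1 and 2, against 0.129, 0.204 and 0 CPM in air, and Cp38, a chorion protein, had 3.22 and 35.0 CPM, against 1.23, 4.28 and 5.64 CPM. Cp36, another, had 1.17 and 13.0 CPM, against 0.777, 1.94 and 1.57 CPM. Exposed replicate 2 lay above all air libraries in 19 of the 33, which is 57.6% against 26.3% of all genes, and exposed replicate 1 in 4. Without exposed replicate 2, a fit with 1 exposed library, the median was −0.08. With exposed replicate 3 kept 25 of the 33 were higher, against 16.5% of all genes, with a median of 3.37. Summed over the list the groups overlapped, at 562 and 677 CPM in exposed replicates 1 and 2 against 762, 611 and 460 CPM in air, while exposed replicate 3 held 11028 CPM. Of the female markers, Yp1 measured at least 2.01 CPM in every male library of day 2, while yl was at 0 in 1 air library. The part of female RNA in the immune and seminal fluid results was not tested. The other 23 lists, of stress, housekeeping and tissue genes, had medians between −0.25 (circadian clock genes) and 1.19 (the 3 yolk protein genes). Of their 636 list entries, 19 were higher and 29 lower at an unadjusted p below 0.05, against 3.69% and 3.31% of all genes.

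**Figure D5:**
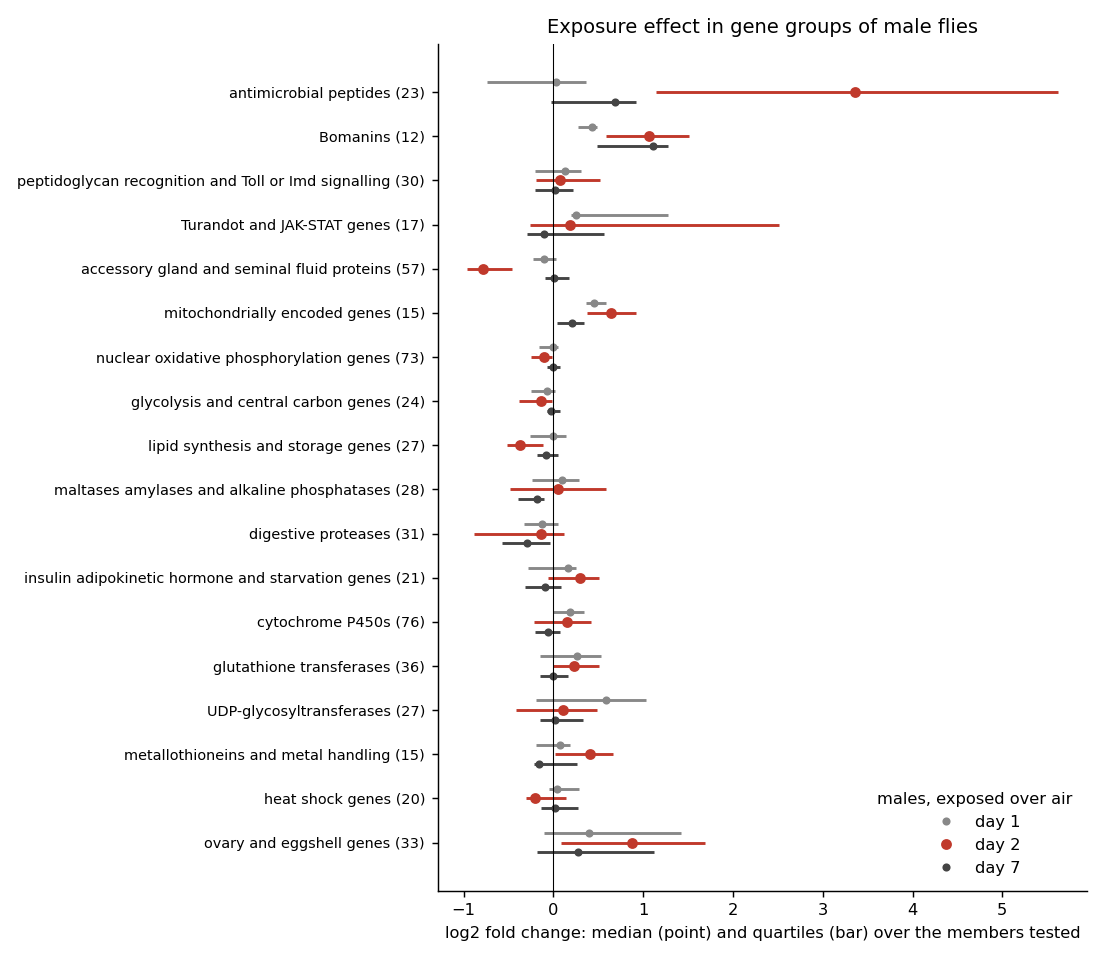
Median (points) and quartiles (bars) of the log2 fold change, exposed over air, in 18 gene groups of males on day 2 (red), day 1 (light grey) and day 7 (dark grey), with the number of genes tested in brackets. On day 2 antimicrobial peptides have a median of 3.36 and seminal fluid proteins one of −0.79, against medians of 0.03 and −0.11 on day 1 and of 0.69 and 0.01 on day 7.

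Whether the effect of day 2 differed from that of other days was tested within the same fit. The effect on day 2 minus that on day 1 passed the adjusted threshold for 0 genes higher (0%) and 0 lower (0%), with 378 (2.86%) and 311 (2.35%) below an unadjusted p of 0.05, and DESeq2 called 9 and 6. For day 2 minus day 7, 0 were higher (0%) and 0 lower (0%), with 297 (2.25%) and 238 (1.8%) below an unadjusted p of 0.05, and DESeq2 called 0 and 0. Antimicrobial peptides had 12 of 23 higher and 1 lower against day 1 at an unadjusted p below 0.05, with a median difference of 2.59, and 12 higher and 2 lower against day 7, with a median of 2.71. Mtk gave the largest difference of those named, 8.04 against day 1 (SE 1.49, adjusted p = 0.173), where exposed males of day 1 held 49.7, 621 and 157 CPM and air males 864, 1016 and 185 CPM. AttC differed by 6.96 from day 1 (adjusted p = 0.173) and by 6.65 from day 7 (adjusted p = 0.872), and DptB by 6.42 from day 7 (adjusted p = 0.872). CG15522, an uncharacterised gene, differed by 3.30 from day 1 (adjusted p = 0.173).

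Lower on day 2 than on day 1 were the effects on tRNA:Ala-TGC-1-1, by −7.69 (adjusted p = 0.173), MFS12, a transporter of the major facilitator family, by −3.15 (adjusted p = 0.173), and snoRNA:Psi18S-531, by −3.11 (adjusted p = 0.178). Against day 7 the smallest p-values among lower differences were those of snoRNA:Psi18S-531 (−2.55, adjusted p = 0.918), Con, a cell adhesion protein (−1.85, adjusted p = 0.946), and phu (−2.50, adjusted p = 0.979). Seminal fluid proteins had 13 of 57 lower and 0 higher against day 1, with a median of −0.63, and 14 lower and 0 higher against day 7, with a median of −0.79. Exposure effects of the other days on these genes were near 0, with Dup99B at 0.05 on day 1 and 0.01 on day 7.

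The effect in males minus that in females on day 2 was positive and past the adjusted threshold for 11 genes (0.0808%) and negative for 0 (0%) of 13621 tested in 34 libraries, without the 2 libraries that hold RNA of both sexes. Below an unadjusted p of 0.05 were 751 (5.51%) and 239 (1.75%), and DESeq2 called 32 and 2. The 3 with the smallest p were yellow-g, a gene of eggshell formation, at 8.20 (SE 1.09, adjusted p = 0.000336), CG14834 at 4.55 (SE 0.68, adjusted p = 0.00151) and CG10407 at 5.22 (SE 0.83, adjusted p = 0.00317). In males these genes hardly differed: yellow-g had 1.17 and 2.46 CPM in exposed libraries, against 1.62, 0.815 and 1.02 CPM in air, and its log2 fold change was 0.68 (adjusted p = 0.971). CG10407 had 290 and 215 CPM in exposed males, against 348, 246 and 205 CPM in air males. The difference came from females, where yellow-g had 0.0969 and 1.11 CPM in exposed replicates 2 and 3, against 122, 103 and 57.5 CPM in air, and fell by 7.57 on the log2 scale (adjusted p = 6.74e-06).

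The lower differences with the smallest p were ppk22, a sodium channel gene (−5.61, adjusted p = 0.165), B4 (−1.05, adjusted p = 0.287) and Ca-alpha1T, a calcium channel gene (−1.85, adjusted p = 0.287). ppk22 had 0 counts in all 3 air female libraries, so its fitted difference depends on the prior count. Antimicrobial peptides had 9 of 23 higher and 0 lower between the sexes at an unadjusted p below 0.05, with a median of 2.01 against 0.19 over all genes tested. None passed the adjusted threshold. AttC, for instance, had 243 and 27.0 CPM in exposed females 2 and 3, against 28.8, 15.5 and 17.6 CPM in air females, and the effect in males minus that in females was 4.0 (SE 1.53, adjusted p = 0.541).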

How the data were processed

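Gene counts per library were deposited by the authors, as whole numbers for 17583 entries a file, 17582 of them with a symbol, of which 17290 matched the dm6 annotation used for positions. Per the labels' protocols, libraries were Lexogen QuantSeq 3' libraries from 500 ng of total RNA. Per the submitters' processing notes, fastp, STAR and HTSeq with the dm6 build were used. Tool versions and whether counting used strand: not given in the sources used here. A row without a name held at most 0.000107% of a library's counts and was left out.

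Counts were tested with edgeR 4.0.16 in R 4.3.3 (limma 3.58.1, TMM scaling, quasi-likelihood test, Benjamini-Hochberg threshold 0.05, minimum count 10 and minimum total 15). The fit held 17 male libraries in 6 groups, so groups shared 1 estimate of spread; effects were compared between days within it and between sexes in a fit of 34 libraries. DESeq2 1.42.0, other scaling and filters, a replicate block and the series' own threshold were alternatives. So was leaving out, in turn, each day 2 male library of the fit. No female library and no library of another day was left out. Levels are CPM of the library total, while fold changes are from the TMM fit with a prior count of 0.125, and SE is the fold change over the square root of F. Permuting 2 against 3 libraries cannot give a two-sided p below 0.2, so no such test was run. Same-numbered exposed and air libraries deviated together by correlations of −0.05 to 0.13, which gave no sign of pairing. With 2 or 3 libraries a group this check cannot exclude it. The fit was also run on counts simulated from its own model and spread, a check that cannot show how well that model holds for these libraries.

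Members and the 41 gene lists, of which 18 are described, were chosen with earlier results of these data known. Genes were named by a rule: the 5 with the smallest p in each direction where fewer than 5 passed, the 3 with the smallest p of each list, and the 3 per direction of each difference; others are named as chosen after their values were seen.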

Additional observations from a re-analysis of the deposited data

Results flagged for a closer look

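The effect in males minus that in females differed past the adjusted threshold for yellow-g (8.20), CG14834 (4.55) and CG10407 (5.22) on the log2 scale. CG14834 had 2.24 and 3.69 CPM in exposed males, against 4.60, 1.53 and 1.39 CPM in air males, while exposed females 2 and 3 held 1.07 and 4.33 CPM, against 42.3, 45.9 and 45.8 CPM in air females.

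Female markers appeared in a library labelled male: exposed replicate 3 of day 2 held 6700 CPM of Yp1 and 4129 CPM of dhd, against at most 33.0 and 10.4 CPM in the air males of day 2. Conversely, exposed female replicate 1 held 661 CPM of the seminal fluid gene Dup99B, against 4.51, 1.72 and 1.98 CPM in air females. Exposed male replicate 3 was left out of the leading results and both libraries out of the comparison of sexes.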

How the results depend on the processing

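With 2 exposed libraries the calls depend on the setting. For exposed against air males of day 2 the counts, 0 higher and 0 lower, became 23 and 15 with DESeq2, 24 and 3 without a filter, 708 and 157 with DESeq2 and exposed replicate 3 kept, and 460 and 355 at the threshold of the series text, over 1.5-fold and an unadjusted p below 0.05. The replicate block gave 14 higher and 0 lower, and whether the numbers pair the libraries is not known. Leaving out 1 library at a time gave 0 to 58 higher and 0 to 123 lower, the highest of both without exposed replicate 1, and 27 higher without air replicate 3. Size factors of DESeq2 in edgeR, the filter of 5 CPM, only the 5 libraries of day 2 and both sexes in 1 fit each gave 0 and 0. For day 2 minus day 1, DESeq2 gave 9 and 6, and leaving out a library 0 to 14 higher and 0 to 41 lower. For day 2 minus day 7, leaving out a library gave 0 to 23 higher and 0 to 62 lower. Males minus females gave 592 and 1027 with both mixed libraries kept and 32 and 2 with DESeq2. Leaving out 1 day 2 air male library gave 6 to 22 higher and 0 lower. No female library, and no library of day 1 or day 7, was left out in turn. The ranges between days and between sexes therefore do not cover how the calls depend on those libraries.

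Leaving out 1 library at a time, log2 fold changes ranged over both signs for BomT2 (−0.23 to 2.25), BomS2 (−0.24 to 2.85), Cp38 (−0.22 to 3.21), Cp36 (−0.27 to 3.18), CG14834 (−0.09 to 0.95), Drs (−0.14 to 4.29), Yp1 (−0.93 to 2.58) and dhd (−0.61 to 2.48), the lowest each time without exposed replicate 2. CG10407, at −0.04, gave 0.17 without exposed replicate 2 and 0.09 without air replicate 1. Hsp27 turned to 1.50 with exposed replicate 3 and to 1.56 with DESeq2 as well. lncRNA:roX1, near 0 throughout, gave 0.02 with the filter of 5 CPM and −0.11 to 0.14 without a library. The cause was not tested in any of these.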
